A study of Mus musculus with 22 samples.

Results

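Metallothioneins and zinc transporters were followed through RNA-seq of mouse duodenal organoids exposed to cold atmospheric plasma (CAP), an ionised helium gas that loads the culture medium with reactive oxygen and nitrogen species. The genes were chosen by name, as the entries whose gene symbol was Mt1, Mt2, Slc39a4, Slc39a5, Slc39a14, Slc30a1, Slc30a2, Slc30a10 or Mtf1, which made 9 genes of the 52636 in the table. All 9 were found, each as 1 entry, and all 9 passed the filter on low values in each comparison with untreated organoids.

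Metallothioneins are small, cysteine-rich proteins that bind zinc and copper in the cytosol and are known to rise with metal load and with oxidative stress. Zinc enters the cytosol through the ZIP transporters (Slc39a genes) and leaves it, to the outside or into vesicles, through the ZnT transporters (Slc30a genes). The transcription factor Mtf1 senses cytosolic zinc and switches on metallothionein genes and Slc30a1 by binding metal response elements in their promoters. In the small intestine Slc39a4 takes up dietary zinc at the luminal face of enterocytes, and Paneth cells at the crypt base store zinc in their granules with the help of Slc30a2.

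Organoids were grown from the duodenum of wild-type outbred CD1 mice aged 2 months, 1 mouse per line. The labels give passage 12 for line CD1, 14 for WT2 and 4 for 1-20 and 2-20. The study lists its lines under other names, and by passage CD1 and WT2 match 2 male lines. It gives the remaining 2 lines of this experiment as female at passage 2, so that their match is inferred and the passages differ. Line, passage and sex cannot be told apart. The 22 libraries were 4 untreated ones, 1 per line, and 3 in each of 6 treated groups, 1 each from lines CD1, WT2 and 2-20. In direct 30 min and direct 24 h, plasma (50 W for 60 s) was applied to the organoids at day 1 and the treated medium was left on for 30 min or for 24 h. In indirect day 1, untreated organoids received for 24 h, from day 1, medium taken from another organoid culture under plasma, and in PAM day 1 they received plasma-activated medium that had held no organoids. In indirect day 2 and PAM day 2 both kinds of medium, made at day 1, were given from day 2 to day 3. In direct 30 min, by the study's design, fresh medium was given after 30 min and until day 3. Direct 24 h, indirect day 1 and PAM day 1 had fresh medium for 24 h before collection, whereas the day-2 groups were collected when exposure ended. Start day, age of the medium and time since exposure thus cannot be told apart. The labels call the day-1 groups of both media 30 minutes and the day-2 groups 24 hours. The times used here are those of the study's design, which places the end point at day 3. The study also describes direct 30 min as an early time after treatment, so that its time of collection is less certain. Values are read counts that the authors scaled to 20 M per library (CP20M), not divided by gene length, and the reads behind each library were estimated at 19.4 to 28.7 M.

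The labels name the cells as stem cells of the epithelium. Summed over 7 epithelial markers, the libraries held 112572 to 197422 CP20M. Of 6 fibroblast markers, 4 stayed under 10 in all 22 libraries and the sum did not pass 45. The sum of 5 stem cell markers was 32557 to 38876 in untreated organoids and 757 to 2747 in PAM day 2, so that the share of these cells or their RNA differed strongly between groups. In bulk RNA, fewer cells of a type and less RNA per cell cannot be told apart. Libraries of the same line deviated together from their group means (median correlation across genes 0.536 over 63 pairs, against -0.306 over 144 pairs from different lines). The untreated libraries labelled CD1 and WT2 went against this. The first correlated at a median of 0.075 with the 6 treated CD1 libraries and of 0.541 with those of WT2, and the second at 0.132 with its own line and 0.353 with CD1. Their line labels are therefore in doubt, and the results were also computed without both.

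Mt1 and Mt2 lie side by side on chromosome 8 in the same orientation, 5513 bases apart (GRCm38, Mt1 94179082 to 94180327 and Mt2 94172664 to 94173568, both plus strand). The 250 bases before the RefSeq start of both genes and of Slc30a1 are shown because these are the 3 classical Mtf1 targets of the set. Capitals mark the core of the metal response element, searched on both strands as TGCACNC and TGCGCNC. The windows are chr8:94178839-94179088 for Mt1, chr8:94172368-94172617 for Mt2 and chr1:191906531-191906780 for Slc30a1 (plus strands, GRCm38.p6, RefSeq).

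Mt1: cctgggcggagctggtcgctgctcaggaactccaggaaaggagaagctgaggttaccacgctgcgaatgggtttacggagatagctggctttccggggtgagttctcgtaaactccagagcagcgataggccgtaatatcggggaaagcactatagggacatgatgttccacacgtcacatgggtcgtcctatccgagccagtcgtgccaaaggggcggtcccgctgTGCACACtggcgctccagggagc

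Mt2: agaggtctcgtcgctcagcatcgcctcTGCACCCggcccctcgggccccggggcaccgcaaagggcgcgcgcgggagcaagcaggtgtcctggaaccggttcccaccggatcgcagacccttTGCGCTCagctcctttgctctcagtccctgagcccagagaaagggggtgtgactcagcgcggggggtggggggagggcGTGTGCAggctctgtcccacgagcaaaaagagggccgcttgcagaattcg

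Slc30a1: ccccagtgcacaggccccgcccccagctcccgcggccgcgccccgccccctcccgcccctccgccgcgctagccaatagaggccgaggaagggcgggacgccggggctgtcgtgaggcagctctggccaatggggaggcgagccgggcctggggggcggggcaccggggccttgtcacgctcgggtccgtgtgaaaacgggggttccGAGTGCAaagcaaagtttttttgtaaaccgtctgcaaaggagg

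The core was found once before Mt1, 3 times before Mt2 and once before Slc30a1. At least 1 match stood in 21.4% of the 32851 promoters of the same length, and 3 or more in 1.26%. With the first 50 bases after the RefSeq start included, the matches were 3 for Mt1, 4 for Mt2 and 2 for Slc30a1. As many stood in 1.97%, 0.517% and 7.11% of promoters over those 300 bases, and at least 1 in 25.7%. Slc30a10 held 3, of which 2 overlapped on opposite strands, Slc30a2 held 2, Mtf1 held 0, and the 2 starts of Slc39a5 held 0 and 1. A match describes letters only. GENCODE lists transcripts that start past these windows, by 123 and 153 bases for Mt1, by 47 and 243 for Mt2 and by 476 for Slc30a1. For these transcripts the 50 added bases lie wholly or mostly before the start. The bases before those starts were not all searched, so the counts do not cover the whole promoter of these transcripts.

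Mt1 stood at 6607 ± 1152 CP20M (SD, n = 4) in untreated organoids and Mt2 at 4630 ± 873. The values of Mt1 were 7743 for line CD1, 7084 for WT2, 6564 for 1-20 and 5038 for 2-20. Those of Mt2 were 5548, 4881, 4634 and 3455 in the same order. Line 2-20 was thus the lowest of the untreated libraries for both genes. Per kilobase of exon they were the most abundant of the 9 transcripts, with 7873 for Mt2 and 5303 for Mt1, against 1533 for Slc39a5 and 794 for Slc39a4. The merged exons of Mt1 form 1 block of 1246 bases that spans the whole gene, introns included. Those of Mt2 form 3 blocks of 588 bases in all. The order of Mt1 and Mt2 per kilobase rests on these lengths, and by CP20M Mt2 was 41.0 to 89.0% of Mt1.

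In both direct groups the metallothionein values of the 3 lines lay apart, and neither gene passed the test. In direct 30 min, Mt1 was 7819 in CD1, 8887 in WT2 and 4595 in 2-20, and in direct 24 h 5266, 8071 and 4118. Mt2 was 5652, 6798 and 2914 in direct 30 min and 3427, 5705 and 2370 in direct 24 h. In both groups and for both genes WT2 lay above every untreated library and 2-20 below every one. The log2 fold changes, on the log2(value + 1) scale used throughout, were 0.07 and 0.08 for Mt1 and Mt2 in direct 30 min (adjusted p of 0.886 and 0.888, limma) and -0.22 and -0.35 in direct 24 h (0.555 and 0.439).

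The group mean of both metallothioneins was lowest in PAM day 1, at 3145 ± 2226 for Mt1 and 1695 ± 1579 for Mt2 (SD, n = 3). Mt1 was 1820 in CD1, 5715 in WT2 and 1901 in 2-20, and Mt2 was 746, 3518 and 821. Lines CD1 and 2-20 were below all untreated libraries, whereas WT2 stayed inside their range. The log2 fold change was -1.27 for Mt1 (95% interval -2.13 to -0.41, adjusted p = 0.0258) and -1.82 for Mt2 (-2.94 to -0.70, adjusted p = 0.0177) by limma's test. Neither passed the threshold of an adjusted p under 0.01 with a log2 change of at least 1. Without the WT2 library of that group both passed, at -1.81 (adjusted p = 0.000368) and -2.54 (adjusted p = 0.000151). Of the 7 fits that each left out 1 library, no other passed. In these fits the smallest changes were -0.99 for Mt1 and -1.42 for Mt2, and the highest adjusted p by limma were 0.0964 and 0.0695. The median of all genes tested was -0.13 in that comparison. The summed level of 10 Paneth cell markers was 8135 to 25215 there against 32218 to 44925 in untreated organoids, and its part in the result was not tested.

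Indirect medium gave intermediate levels from day 1 and lower ones from day 2. In indirect day 1, Mt1 was 5892 in CD1, 7581 in WT2 and 2801 in 2-20, and in indirect day 2 it was 2941, 5697 and 1931. Mt2 in indirect day 1 was 3936, 5195 and 1455, and neither gene passed in that group (log2 changes of -0.38 and -0.56, adjusted p of 0.388 and 0.315). Mt1 in PAM day 2 was 3408, 6208 and 1679. Mt2 kept the same order of lines, at 1955, 4492 and 1357 in indirect day 2 and at 2411, 4974 and 1495 in PAM day 2. The log2 fold changes of Mt1 were -1.03 (adjusted p = 0.0310) and -0.99 (adjusted p = 0.0641) in both day-2 groups, and those of Mt2 were -0.998 (adjusted p = 0.0523) and -0.80 (adjusted p = 0.101). None of these 4 passed the threshold. Without the WT2 library of the treated group all 4 passed it, at -1.45 and -1.49 in indirect day 2 and -1.45 and -1.26 in PAM day 2. Of the 7 fits that each left out 1 library, no other passed. The smallest changes of Mt1 and Mt2 in these fits were -0.67 and -0.62 in indirect day 2 (highest adjusted p by limma 0.0889 and 0.163). In PAM day 2 they were -0.50 and -0.40 (0.138 and 0.291). With line WT2 left out of both groups, neither gene passed in PAM day 2. The median log2 change of all genes tested was -0.01 in indirect day 2 and -0.12 in PAM day 2.

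**Figure D1:**
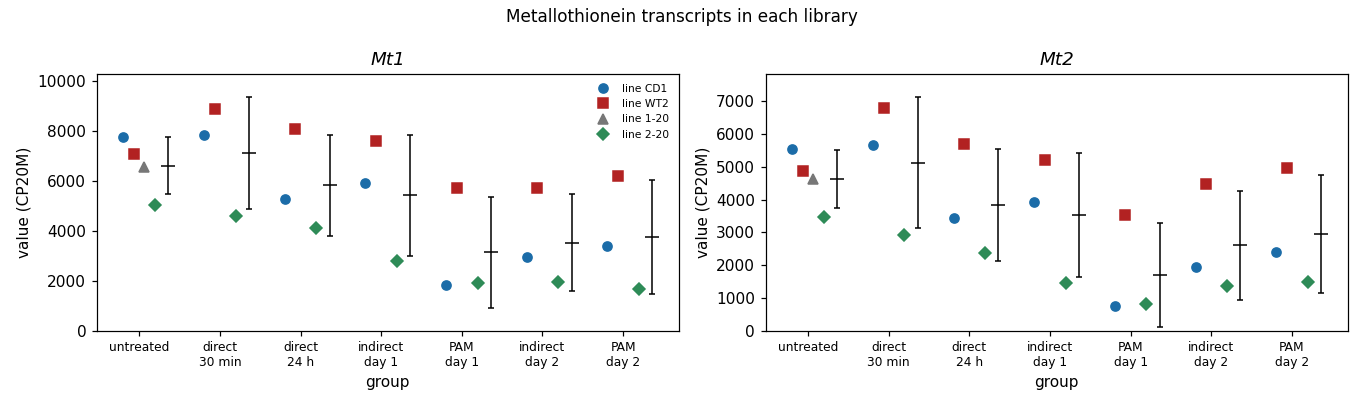
CP20M of Mt1 and Mt2 in each of the 22 libraries by group, with 1 symbol per organoid line and the group mean ± SD in black. Line WT2 (squares) was the highest library of every treated group, and in PAM day 1 lines CD1 and 2-20 were at 1820 and 1901 for Mt1 and at 746 and 821 for Mt2.

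Mt2 overlaps the antisense gene Gm45774, whose CP20M was 98.6 to 99.7% of that of Mt2 in every library, so the reads of both genes cannot be told apart. No identical stretch of 25 bases or more was shared between the annotated transcripts of Mt1 and Mt2. Stretches with mismatches were not searched. Per kilobase of merged exon, which for Mt1 takes in the whole gene, Mt2 was 0.869 to 1.89 times Mt1 across the 22 libraries (median 1.46). Before division by length it was 41.0 to 89.0% of Mt1.

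What plasma did after 24 h from day 1 was asked by pooling direct 24 h, indirect day 1 and PAM day 1. Slc39a4, the main zinc importer of the enterocyte surface (chromosome 15, 76612383 to 76617384, minus strand), rose in this comparison. Untreated libraries held 2148 in CD1, 2223 in WT2, 2607 in 1-20 and 2888 in 2-20. In direct 24 h it was 4577 in CD1, 5207 in WT2 and 6121 in 2-20, and in PAM day 1 it was 5815, 7505 and 8326. In indirect day 1 it was 3228, 4002 and 6327. All 9 of these libraries were above all 4 untreated ones. Over the 9 together, the mean was 5679 ± 1629 (SD) against 2466 ± 346 (SD, n = 4), a log2 fold change of 1.16 or 2.23-fold (95% interval 1.64 to 3.03, limma adjusted p = 0.00123). An exact two-sided permutation test of the 715 arrangements gave p = 0.0014, the smallest it could give. The 9 libraries came from 3 lines, CD1, WT2 and 2-20, each present in all 3 pooled groups. Both tests count libraries of the same line as independent, so neither p describes a spread between 9 mice.

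Of the 9 genes, 1 passed the threshold in this pooled comparison, where 6.34% of 18490 genes did. Slc39a4 and Slc39a5 were the 2 whose groups did not overlap, against 17.7% of all genes. By group, Slc39a4 passed in direct 24 h at 2.15-fold (adjusted p = 0.00381, background 2.17% of genes), in PAM day 1 at 2.91-fold (0.000228, background 10.2%), in indirect day 2 at 2.20-fold (0.000391, background 11.9%) and in PAM day 2 at 2.47-fold (0.00105, background 17.3%). In indirect day 1, where 1.31% of genes passed, it was 1.77-fold higher with an adjusted p of 0.0303 and did not pass. In direct 30 min only line 2-20, at 4824, was above the untreated range, with CD1 at 2490 and WT2 at 2515, and the 1.27-fold difference had an adjusted p of 0.373.

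The day-2 values were 5038 in CD1, 4853 in WT2 and 6401 in 2-20 for indirect medium and 5311, 5119 and 8120 for PAM. Line 2-20 was the highest in all 6 treated groups as in the untreated one. In each of lines CD1, WT2 and 2-20, 6 of 6 treated libraries were above the untreated library of that line for Slc39a4, and 6 of 6 were below it for Slc39a5. Leaving out untreated CD1 or WT2, or direct 24 h CD1 or 2-20, ended the call in direct 24 h (adjusted p of 0.0107, 0.0139, 0.0123 and 0.00852, the last with a log2 change of 0.995). Without line WT2 altogether the pooled log2 change was 1.12 (adjusted p = 0.0106), and the calls in direct 24 h and PAM day 2 were lost too. Without both untreated libraries whose line is in doubt the pooled change was 0.99 (adjusted p = 0.0430), and of the single groups PAM day 1 alone kept the call, at 1.38 (adjusted p = 0.00452). In that fit the calls over all genes fell from 1173 to 148 in the pooled comparison.

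**Figure D2:**
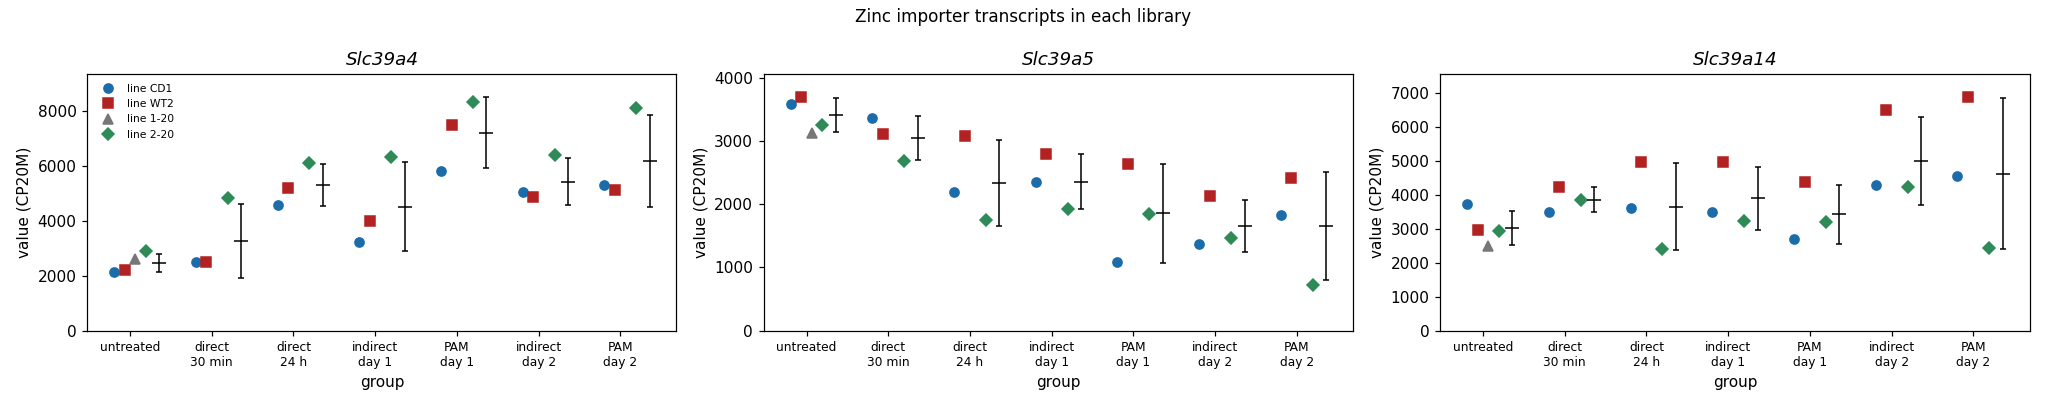
CP20M of the 3 ZIP importers in each library, with 1 symbol per organoid line and the group mean ± SD in black. For Slc39a4 all 9 libraries of direct 24 h, indirect day 1 and PAM day 1 lie above the highest untreated value of 2888, and for Slc39a5 the same 9 lie below the lowest untreated value of 3120.

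Slc39a5, the ZIP importer of the basolateral face of enterocytes (chromosome 10, 128395931 to 128401229, minus strand), lay lower in treated organoids. Untreated libraries held 3582 in CD1, 3688 in WT2, 3120 in 1-20 and 3252 in 2-20. In direct 30 min it was 3371, 3104 and 2679 in CD1, WT2 and 2-20, so that the groups overlapped. The log2 change there was -0.16 (limma adjusted p = 0.338). In indirect day 2 it was 1364, 2128 and 1464 in lines CD1, WT2 and 2-20, and in PAM day 2 it was 1837, 2413 and 724. All 6 were below the untreated range. In indirect day 2 it fell past the threshold, with a log2 fold change of -1.07 (95% interval -1.41 to -0.73, limma adjusted p = 0.000880). In PAM day 2 the log2 change was -1.21 with an adjusted p of 0.0239 (95% interval -2.02 to -0.39). There it passed when all 7 groups shared 1 fit (adjusted p = 0.00498) or without the WT2 library (-1.56, adjusted p = 0.00903). No other fit that left out 1 library passed, and the smallest change in these was -0.69 (highest adjusted p by limma 0.0581).

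After exposure from day 1 the values of Slc39a5 were 2196, 3076 and 1745 in direct 24 h for CD1, WT2 and 2-20, and 2345, 2793 and 1931 in indirect day 1. In PAM day 1 they were 1080, 2632 and 1851. These 9 libraries were all lower than the 4 untreated ones, with WT2 the highest of each group. The pooled log2 change was -0.70 (95% interval -1.14 to -0.25, adjusted p = 0.0198, exact permutation p = 0.0126), which did not reach the threshold. As for Slc39a4, both tests count libraries of the same line as independent. By limma, the log2 change of Slc39a5 was -0.58 in direct 24 h alone (adjusted p = 0.0527) and -0.55 in indirect day 1 alone (adjusted p = 0.0219). In PAM day 1 alone it was -0.97 (adjusted p = 0.0161), and -1.27 without the WT2 library (adjusted p = 0.00256). No other fit of that group without 1 library passed, and the smallest change was -0.62. The call in indirect day 2 was lost when all 7 groups shared 1 fit (adjusted p = 0.0151), without the CD1 or the 2-20 library of that group (log2 changes of -0.95 and -0.9975) and without the 2 untreated libraries in doubt (adjusted p = 0.0151).

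In indirect day 2 the 2 enterocyte importers thus changed in opposite directions in the same 3 libraries. The summed level of 11 enterocyte markers was 183023 to 221928 in untreated organoids, 228147 to 268828 in indirect day 2 and 305592 to 384560 in PAM day 2. Of the 11, Alpi was higher and Fabp2, Apoa1 and Anpep were lower past the threshold in indirect day 2, and Alpi and Apob were higher in PAM day 2. Of all genes, 11.9% passed in indirect day 2 and 17.3% in PAM day 2. Although the sums were higher, the median log2 change of the 11 was -0.99 in indirect day 2, with 8 of 11 negative, and -0.41 in PAM day 2, with 7 of 11 negative. Their part in the levels of Slc39a4 and Slc39a5 was not tested. Slc39a5 overlaps Ankrd52 on the other strand, whose CP20M was 79.8 to 423.9% of its own.

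Slc39a14, an importer of zinc, iron and manganese, did not pass the threshold in any group. It was 3719, 2968, 2504 and 2932 in the untreated lines CD1, WT2, 1-20 and 2-20. In indirect day 2 it was 4288 in CD1, 6484 in WT2 and 4227 in 2-20, all above the untreated values, a log2 change of 0.71 (95% interval 0.30 to 1.12, adjusted p = 0.0130). In PAM day 2 it was 4562, 6867 and 2421, so that the groups overlapped.

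Slc30a1, the exporter at the plasma membrane and an Mtf1 target (chromosome 1, 191906767 to 191913247, plus strand), stayed near its untreated level. The untreated values were 769 in CD1, 880 in WT2, 757 in 1-20 and 819 in 2-20, and the treated ones 550 to 983. Its untreated mean was 806 ± 56 (SD, n = 4), and the 6 treated means lay between 714 and 804. The log2 fold changes ranged from -0.20 in PAM day 1 (95% interval -0.56 to 0.15) to -0.02 in direct 24 h (-0.34 to 0.30), and the intervals of all 6 comparisons excluded a 2-fold change either way. Under quantile normalization, 5 of the 6 values turned positive, at most 0.15. The antisense gene 1700034H15Rik overlaps Slc30a1 and had 17.1 to 25.4% of its CP20M.

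Mtf1, the zinc sensor itself, lay within a narrow range. The untreated values were 1041 in CD1, 1014 in WT2, 1102 in 1-20 and 925 in 2-20. In PAM day 2 it was 1246, 1430 and 1382 in CD1, WT2 and 2-20, above all untreated libraries, with a log2 change of 0.41 (95% interval 0.18 to 0.63, adjusted p = 0.0109). The 3 libraries of indirect day 2, at 1123 to 1280, were also above the untreated range (log2 change 0.24, adjusted p = 0.0537). Neither reached the threshold. In the other 4 groups the log2 changes were 0.02 to 0.15. 1110065P20Rik overlaps Mtf1 and had 31.3 to 77.8% of its CP20M.

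Slc30a10, which exports manganese and zinc, varied widely between lines in treated organoids. It was 691 to 866 in untreated organoids. In direct 30 min (870 to 1305) and in indirect day 1 (923 to 1455) all 3 libraries were above these, with log2 changes of 0.37 (adjusted p = 0.184) and 0.55 (adjusted p = 0.0357). In PAM day 2 it was 1453 in CD1, 3418 in WT2 and 440 in 2-20, and in indirect day 2 it was 802, 2403 and 1260. In PAM day 1 it was 397, 1506 and 1166. The log2 changes in these groups, 0.74, 0.79 and 0.19, had adjusted p of 0.315, 0.0702 and 0.734. Without the 2-20 library it passed in PAM day 2, at 1.51 (adjusted p = 0.00487), and without the CD1 library in indirect day 2, at 1.16 (adjusted p = 0.00854). No other fit without 1 library passed in these 2 groups, and the smallest changes were 0.04 and 0.37. Gm2061, on the other strand, had 18.1 to 29.6% of its CP20M.

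Slc30a2, which loads zinc into vesicles and Paneth granules, was at 6 to 58 CP20M and, per kilobase, the scarcest of the 9 in untreated organoids. The untreated libraries held 53 in CD1, 14 in WT2, 54 in 1-20 and 20 in 2-20. The values were 8, 29 and 6 in CD1, WT2 and 2-20 of indirect day 2, and 8, 25 and 8 in PAM day 2. Treated WT2 lay above the other 2 lines in both. The log2 changes of -1.33 and -1.28 had adjusted p of 0.125 and 0.110. At this depth a value of 10 stands for about 10 reads, and the scale with 1 added understates the change of so low a gene.

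**Figure D3:**
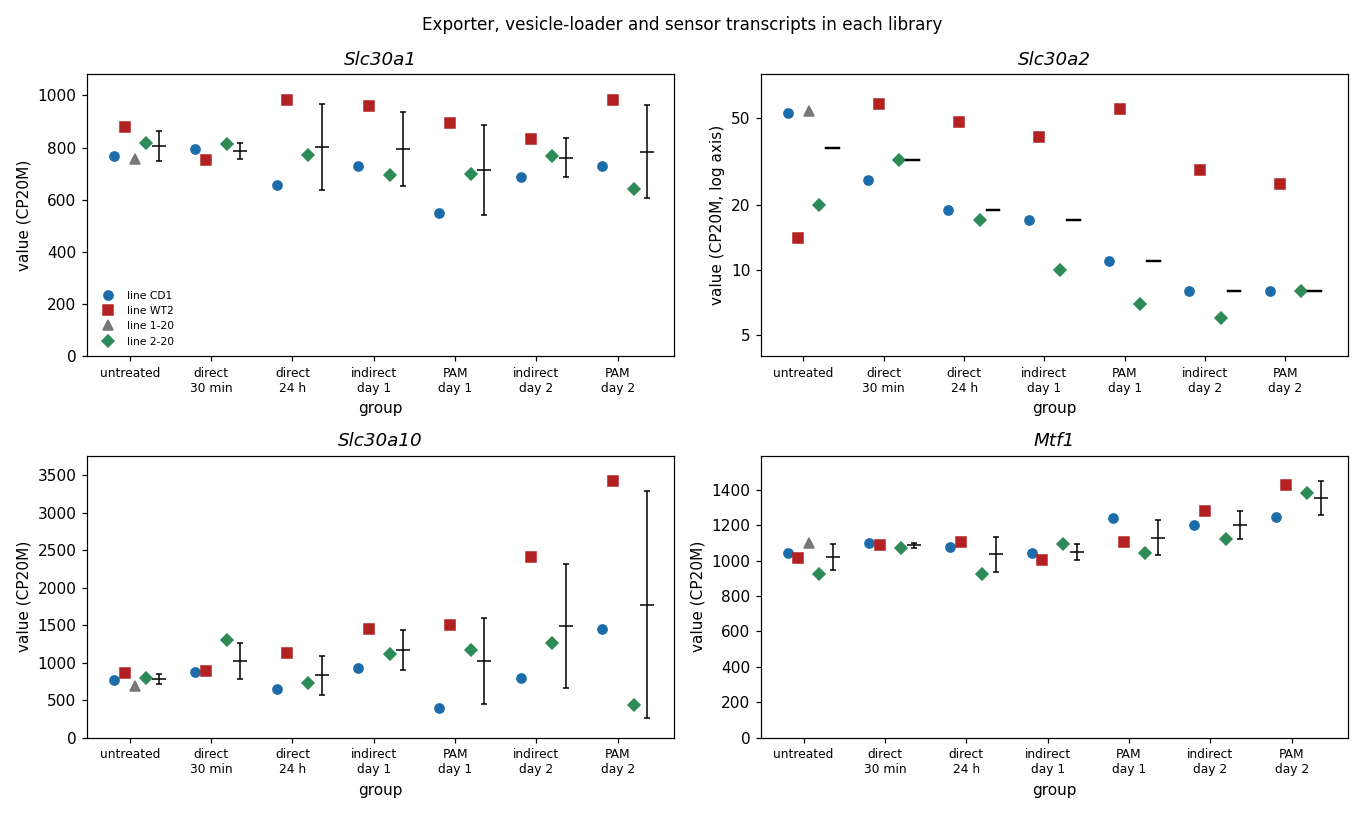
CP20M of Slc30a1, Slc30a2 (log axis), Slc30a10 and Mtf1 in each library, with 1 symbol per organoid line. Black marks are the group mean ± SD, or the median alone for Slc30a2. Slc30a1 stays near its untreated mean of 806 in every group, and WT2 lies apart for Slc30a2 at 25 to 58 in treated groups.

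Against untreated organoids, the 9 genes thus gave 1 call in each of direct 24 h, PAM day 1, PAM day 2 and the pooled comparison and 2 in indirect day 2. Of all genes, 2.17%, 10.2%, 17.3% and 6.34% passed in the first 4, in that order, and 11.9% in indirect day 2. In direct 30 min 0 passed by limma, where 1 gene of 17731 did (0.00564%). Before adjustment, p was under 0.05 for 2 of the 9 there and for 4415 of all genes. In indirect day 1 also 0 passed, and 3 of the 9 had an unadjusted p under 0.05, as did 6869 of 17818 genes. In direct 30 min and indirect day 1, the counts of the 9 by unadjusted p were no larger in share than those of all genes. The median log2 change of the 9 was between -0.20 and 0.09 over the 7 comparisons. All 7 comparisons share the 4 untreated libraries. The replicate block, which pairs libraries of a line, changed none of these calls.

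**Figure D4:**
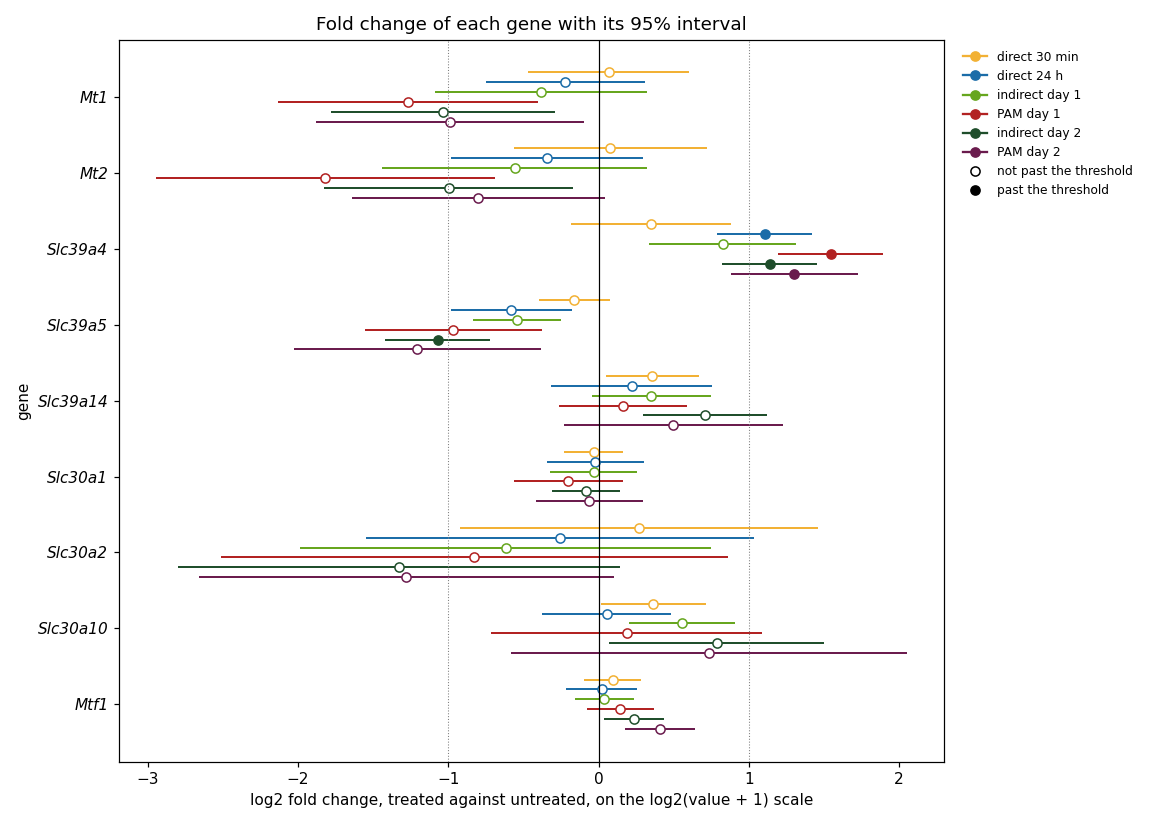
Log2 fold change of each gene in the 6 treated groups against untreated, on the log2(value + 1) scale, with its 95% interval. Filled points passed the threshold, which Slc39a4 did in 4 groups and Slc39a5 in indirect day 2, and dotted lines mark a log2 change of 1 either way.

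Treated groups were also set against each other. Of the 9 genes, 0 passed in any of these 7 comparisons. The share of all genes that passed was 0% in 6 of them and 0.0111% in indirect day 2 against indirect day 1. An unadjusted p under 0.05 was reached by Slc39a4 and Mt2 for PAM day 1 against direct 24 h, by Slc39a4 for direct 24 h against direct 30 min and for PAM day 1 against indirect day 1, by Slc39a5 for indirect day 2 against indirect day 1, and by none in the other 3, in 1 of which Slc30a2 was too low to be tested. By an unadjusted p under 0.05, the 6 comparisons with no call had 1228 to 4651 genes of the whole table. Treated groups share the 3 lines, and the replicate block raised the calls over all genes from 0 to 200 in direct 24 h against direct 30 min and from 0 to 58 in PAM day 1 against direct 24 h, and from 2 to 623 in indirect day 2 against indirect day 1. Of the 9 genes 0 passed under it too, since none met both parts of the threshold. The values that follow were chosen after they were seen. In indirect day 2 against indirect day 1 the blocked log2 changes were -0.65 for Mt1 (adjusted p = 0.00217), -0.52 for Slc39a5 (adjusted p = 0.00299) and 0.36 for Slc39a14 (adjusted p = 0.00580), each of 1 sign in all 3 lines and smaller than 1. For PAM day 1 against direct 24 h they were -1.47 for Mt2 (adjusted p = 0.0104) and -1.05 for Mt1 (adjusted p = 0.0156), lower in 3 of 3 lines.

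The order of the group levels of Mt1 and Mt2 was the same, from direct 30 min over untreated, direct 24 h, indirect day 1, PAM day 2 and indirect day 2 to PAM day 1. For Slc39a4 it ran from PAM day 1 over PAM day 2, indirect day 2, direct 24 h, indirect day 1 and direct 30 min to untreated, and for Slc39a5 from untreated over direct 30 min, indirect day 1, direct 24 h, PAM day 1 and indirect day 2 to PAM day 2. Between neighbours in each of these orders the means ± SD overlapped.

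The metallothionein level differed between organoid lines. Over the 18 treated libraries, WT2 held 5697 to 8887 CP20M of Mt1 (median 6894), and the 12 libraries of CD1 and 2-20 held 1679 to 7819 (median 3174). For Mt2 the ranges were 3518 to 6798 (median 5084) and 746 to 5652 (median 2162). WT2 was the highest of the 3 lines in 6 of 6 groups for Mt1, Mt2, Slc39a14 and Slc30a2.

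With the treated group as a term, any difference between the 3 lines had an adjusted p of 2.32e-05 for Mt1, 2.98e-05 for Mt2 and 2.65e-05 for Slc30a2 by limma, and 5 of the 9 genes were under 0.01, with Slc39a4 (0.000244) and Slc39a14 (0.00181) the others, where 22.5% of 19206 genes were. The contrast of WT2 with the other lines was chosen after the values were seen. It was 1.09 for Mt1 (95% interval 0.67 to 1.501, adjusted p = 0.00211), 1.31 for Mt2 (0.84 to 1.79, adjusted p = 0.00136) and 1.65 for Slc30a2 (1.24 to 2.06, adjusted p = 9.78e-05) on the log2 scale. These 3 of the 9 passed the threshold, all higher in WT2, where 2.36% of genes passed. Slc39a14 was 0.63 higher (adjusted p = 0.00475), and Slc39a4 differed by -0.19 (-0.54 to 0.16). For Slc39a4 the lines differed otherwise, with 2-20 at 0.64 above CD1. Each line is 1 mouse, and the treated libraries of a line share that source, so the test describes these 3 lines.

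**Figure D5:**
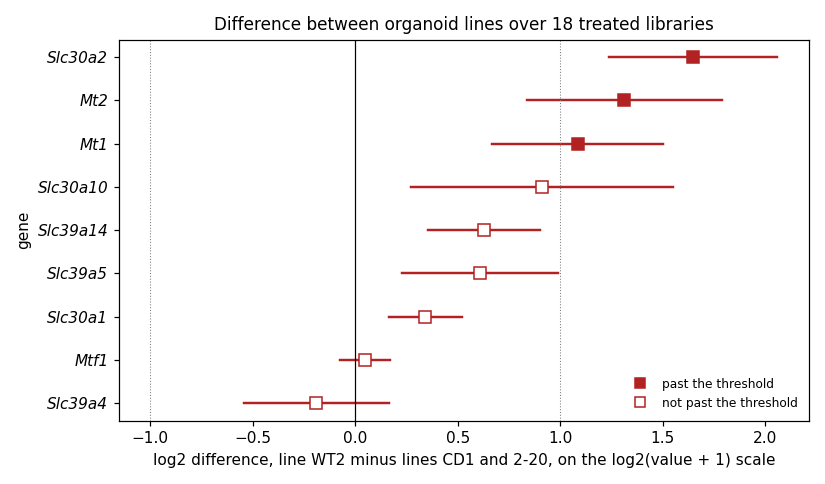
Log2 difference of line WT2 from lines CD1 and 2-20 over the 18 treated libraries, with its 95% interval and the treated group as a term in the fit. Filled squares passed the threshold, which were Slc30a2, Mt2 and Mt1, and the interval of Slc39a4 and that of Mtf1 include 0.

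Markers of Paneth and other cell types also differed between the lines. The summed level of 10 Paneth markers was highest in WT2 in 6 of 6 treated groups, at 24632 to 37182 against 7879 to 25934 in CD1 and 2-20. In the contrast of lines 2 of the 10 were higher past the threshold, where 2.36% of all genes passed. Of the 10, 9 had a positive difference (median 1.08, against -0.005 for all genes). In untreated organoids the sum was 32218 to 44925. In the pooled comparison 4 of the 10 (Itln1, Defa17, Defa24 and Defa30) were lower and 1 (Pnliprp2, a lipase-related gene) higher past the threshold. There 6.34% of all genes passed. Of 11 enterocyte markers, 3 were higher in WT2 past the threshold (median of the 11, 0.98). Of 7 goblet markers 2 were, with 7 of 7 positive (median 0.593). Of 7 enteroendocrine markers 0 passed, with 7 of 7 positive (median 0.714). Of 4 leukocyte markers tested, 1 was higher past the threshold and 3 were positive (median 1.565). Tuft markers went the other way, with 1 of 4 tested lower past the threshold and 0 positive (median -0.63). The part of these cell types in the metallothionein and Slc30a2 levels was not tested. In untreated organoids WT2 was not the highest library for Mt1, Mt2 or Slc30a2. For Mt1 and Mt2 this rests on the 2 libraries whose line is in doubt. For Slc30a2 line 1-20 was the highest at 54, above both of those libraries, at 53 and 14.

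The wider families held 29 genes with the 9, of which 26 were tested in each comparison with untreated. Of the 4 metallothioneins, Mt3 stayed at 7 or less and was not tested. Mt4, the metallothionein of stratified epithelia, was 98 to 177 in treated WT2 and 2 to 45 in the other treated libraries, a log2 difference of 3.17 between lines (adjusted p = 0.000370), and it did not pass in any comparison with untreated. Of the 26, it was with Mt1, Mt2 and Slc30a2 1 of 4 past the threshold between lines, where 2.36% of all genes passed. The counts past the threshold were 0 or 1 higher and 0 or 1 lower in each of the 7 comparisons with untreated. The share of all genes that passed in these was 0.00564% (direct 30 min) to 17.3% (PAM day 2). The median log2 change of the 26 was between -0.13 and 0.02.

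Beside Slc39a4 and Slc39a5, the only family gene past the threshold was Slc30a3, a loader of synaptic vesicles, which was scarce. Its untreated values were 30 in CD1, 31 in WT2, 15 in 1-20 and 23 in 2-20, and those in PAM day 1 were 3, 10 and 6 in CD1, WT2 and 2-20. It passed in the pooled comparison, with a log2 change of -1.60 (adjusted p = 0.00669), and in PAM day 1, with -1.88 (adjusted p = 0.00806). In PAM day 1 only WT2 reached the 10 of the filter, so the gene entered that test through the untreated libraries, where it was high. That call therefore rests on few reads and is no evidence by itself.

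Of 13 genes of copper handling, the other metal that metallothioneins bind, 0 passed in 6 of the 7 comparisons with untreated by limma. The share of all genes that passed in those 6 was 0.00564% to 11.9%. In PAM day 2, 2 of the 13 were lower. There 17.3% of all genes passed, 1857 of 17694 of them lower, so that 2 of 13 is near the background. Atox1, the cytosolic copper chaperone, was 483 ± 143 (SD, n = 3) in PAM day 2 against 1172 ± 59.6 (SD, n = 4), a log2 change of -1.32 (adjusted p = 0.00124). Steap3, a metalloreductase, was 28 ± 13.1 against 90.25 ± 17.4, with -1.75 (adjusted p = 0.00532).

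The genes whose 7 group means were closest in pattern to each member were found among 13195 others with a mean of at least 50 CP20M, by the root mean square difference of centred log2 levels. Only the 5 genes whose group means spanned a log2 difference of 1 or more were compared. For Slc39a4 they were Cnn2, Card19 and Rasgef1b (0.06 to 0.08). For Slc39a5 they were Aldh9a1, D530033B14Rik and 4930594M22Rik (0.03 to 0.05). For Mt1 they were the mitochondrial transfer RNAs mt-Ta and mt-Tw and the gene Khk (0.14 to 0.16), with Mt2 at rank 53 (0.22), and for Mt2, after Gm45774, they were mt-Tw (0.20) and Mt1 (0.22). For Slc30a2 they were Ugt2b5, Aldh1a1 and Epb41l3 (0.15 to 0.17), compared over 13196 genes.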

How the data were processed

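RNA of 22 organoid libraries was sequenced by the authors (paired ends of 100 bases), trimmed with Trimmomatic 0.36, aligned with STAR 2.5.3a to GRCm38 and counted with HTSeq 0.9.1, per the submitters' processing notes and the study's methods. The deposited values are a score per gene, CP20M, that is, counts scaled by the authors to 20 M per library and rounded up to whole numbers. The study's legends describe them as per kilobase, but the values follow read counts. The strand setting of the counting is not given in the sources used here, nor which libraries were made with each of the 2 kits that the study names.

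After 1 was added, log2 values were tested with limma 3.58.1 (trended, moderated) in R 4.3.3. A gene entered where 3 or more libraries of the comparison held at least 10, with Benjamini-Hochberg adjustment over all genes. The threshold, an adjusted p under 0.01 with a log2 change of at least 1, follows the study. Count tests were not run, since the values are not counts. On simulated data, of 200 genes changed by 2 on the log2 scale, the method found 192 in the pooled comparison. It found 191 in direct 30 min and 182 in direct 24 h against 30 min, with 0 false calls. With every library kept and 1 added, the largest log2 change of the set against untreated was -1.82, for Mt2 in PAM day 1. The counts found therefore do not give the power for the smaller changes of these genes. The spread set in the simulation was smaller than that of Mt1 and Mt2 in PAM day 1. Simulated libraries were also independent, whereas real libraries of the same line deviated together (median correlation 0.536). The power for these genes at a log2 change of 2 is thus not given either. The 0 false calls hold for the simulated libraries only. Depth was estimated from the spacing of low values, with errors of up to 2.86% on simulated libraries. No replicate pair of 24 agreed within counting noise. Intervals from the fit cover the spread between these libraries only.

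The 9 genes, the lists beside them and the tests were chosen with earlier results of these data known. The genes named are the 9, other family or copper genes past the threshold in a comparison with untreated, and the 3 genes closest in pattern to a member whose group means span a log2 difference of 1 or more. Same-numbered libraries come from 1 organoid line, so a fit with the line as a replicate block was an alternative, beside leaving out each library, fitting all groups together, testing without the filter, adding 10 in place of 1, and quantile normalization. Leaving out line WT2, leaving out 2 untreated libraries, and the fit of lines were added after seeing the data. Mt4 was chosen after its values were seen. Gene positions are from GENCODE vM21, which held 52403 of the 52636 deposited genes. Promoter sequences are from RefSeq and matched 7 of the 9 genes. Figures used Python 3.11.15 and matplotlib 3.10.9.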

Additional observations from a re-analysis of the deposited data

Results flagged for a closer look

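Slc30a2 changed in opposite directions in 2 organoid lines. In line CD1 all 6 treated libraries, at 8 to 26 CP20M, were below the untreated library at 53, and in line WT2 all 6, at 25 to 58, were above the untreated library at 14. The mean log2 change of line WT2 was 3.37 above that of line CD1. The difference was not tested, since each line gave 1 untreated library, and the line labels of both untreated libraries are in doubt. In line 2-20, 5 of 6 treated libraries were below the untreated one. Among the untreated libraries, no value of the 9 genes stood apart from the other 3.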

How the results depend on the processing

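Of 315 log2 fold changes of single genes under other settings with every library kept, 305 kept their direction and their side of the threshold. Leaving out 1 library kept 449 of 495. The number of the 9 genes past the threshold against untreated kept its value under a pseudocount of 10, no filter, quantile normalization and the replicate block. With all 7 groups in 1 fit it was 1 instead of 2 in indirect day 2 and 2 instead of 1 in PAM day 2. Leaving out 1 library gave 0 to 1 in direct 24 h and 1 to 4 in each of PAM day 1, indirect day 2 and PAM day 2. Without line WT2 it was 0 in the pooled comparison, direct 24 h and PAM day 2, 3 in PAM day 1 and 4 in indirect day 2. Without the untreated libraries of CD1 and WT2 it was 0 in the pooled comparison, direct 24 h, indirect day 2 and PAM day 2. These fits hold fewer libraries, and calls over all genes fell too, in direct 24 h from 376 to 4 and 0 and in PAM day 2 from 3063 to 838 and 1. The cause was not tested.

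The lines pair the libraries, and the replicate block gave 1 call in direct 24 h, PAM day 1, PAM day 2 and the pooled comparison, 2 in indirect day 2 and 0 elsewhere, as without it. It turned the direction of Slc30a2 (0.0175) and Slc30a10 (-0.0033) in direct 24 h. The pairing rests on line labels of which 2 are in doubt.

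The log2 changes that turned direction were all of genes not past the threshold. Quantile normalization gave Slc30a1 0.004 in direct 30 min, 0.0413 in direct 24 h, 0.0101 in indirect day 1, 0.0184 in indirect day 2 and 0.146 in PAM day 2, and Slc30a2 -0.0165 in direct 30 min. Without line WT2, direct 30 min gave -0.0832 for Mt1, -0.137 for Mt2, 0.0431 for Slc30a1 and -0.41 for Slc30a2. Direct 24 h gave -0.0377 for Slc39a14, -0.135 for Slc30a10 and -0.0315 for Mtf1, and PAM day 1 gave -0.0367 for Slc39a14 and -0.145 for Slc30a10. Without the 2 untreated libraries, Slc30a1 was 0.0096 in direct 24 h.

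Leaving out 1 library gave these ranges where the sign turned. In direct 30 min they were -0.123 to 0.353 for Mt1, -0.169 to 0.442 for Mt2, -0.0619 to 0.0104 for Slc30a1 and -0.0822 to 0.543 for Slc30a2. In direct 24 h they were -0.0325 to 0.493 for Slc39a14, -0.177 to 0.112 for Slc30a1, -0.713 to 0.0175 for Slc30a2, -0.186 to 0.219 for Slc30a10 and -0.0293 to 0.101 for Mtf1. In indirect day 1 they were -0.684 to 0.0343 for Mt1, -0.177 to 0.055 for Slc30a1 and -0.0073 to 0.0768 for Mtf1. In PAM day 1 they were -0.0314 to 0.321 for Slc39a14 and -0.196 to 0.765 for Slc30a10, and in PAM day 2 -0.235 to 0.0718 for Slc30a1. At 6 to 58 CP20M, Slc30a2 is the gene most limited by depth.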
